A study of Mus musculus with 32 samples.

Results

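Imprinted genes are transcribed mainly or only from the chromosome copy inherited from one parent. The genes described here are 38 of the 55450 genes in the expression tables. They were taken from a list of mouse imprinted genes by matching their symbols, which used no measured value. The list itself was chosen with earlier results of these data known. Of the 38 genes, 24 are known to be expressed from the paternal copy, 13 from the maternal copy, and Gnas from either copy according to the transcript. All 38 were found. Magel2 had no count in any library, so 37 members were tested in comparisons that involve tumours and 33 in the comparison of normal tissues.

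The study compared mouse models of high-grade serous ovarian cancer started at different sites, by sequencing total RNA from 26 tumours and 6 normal tissues of female mice. Every tumour model carries Brca1 fl/fl, an altered Trp53 and the transgene K18GT121 Tg/+, in which Cre recombinase switches on, under a keratin promoter, a fragment of the SV40 large T antigen that inactivates the Rb proteins. OSE-BPR tumours, which have Trp53 fl/fl on the FVB strain, were started in the ovarian surface epithelium by adenoviral Cre given under the ovarian bursa, and gave 3 primary tumours and 5 allografts. Ad-BPR tumours have the same alleles on C57Bl/6 and were started by adenoviral Cre in the oviduct (2 primary tumours, 4 allografts). Pax8-BPR tumours add Pax8-CreERT2 Tg/+, a tamoxifen-activated Cre in secretory cells of the oviduct (C57Bl/6, 4 primary tumours, 2 allografts). Ovgp1-BPR tumours carry Ovgp1-CreERT2 Tg/+, also activated by tamoxifen, with Trp53 KozR172H ki/+ by their sample labels and Trp53 fl/fl with an R172H mutation in the description of the series (C57Bl/6, 3 primary tumours, 3 allografts). Normal oviduct and normal ovary came from the same 3 wild-type C57Bl/6 mice. Primary tumours of the engineered mice are called GEMM tumours (genetically engineered mouse model), and the models started in the oviduct (Ad-BPR, Pax8-BPR, Ovgp1-BPR) are called oviduct-origin. Neither the hosts nor the source tumours of the allografts are named by the labels. Since only OSE-BPR is on FVB, strain and site of origin cannot be told apart in any comparison with OSE-BPR tumours.

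Imprints are laid down as DNA methylation at control regions in the germ line, one pattern in eggs and another in sperm, and are then kept through the divisions of the embryo. Most imprinted genes lie in clusters in which a single control region sets both paternally and maternally expressed genes, often through a long noncoding RNA or an insulator bound by CTCF. Many of them act on the growth of the embryo and placenta, with paternally expressed genes such as Igf2 often promoting growth and maternally expressed genes such as H19, Cdkn1c and Grb10 often limiting it, and several fall in most tissues after birth. Only total RNA per gene was measured here, so neither the parental copy in use nor the methylation of any control region is known for these libraries.

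Library depth ran from 13987123 to 20514825 counts with a median of 17426861. Epithelial marker genes (5 genes, among them Epcam) summed to 1828 to 3922 counts-per-million (CPM) in OSE-BPR tumours, against 60.6 to 91.4 CPM in normal ovary. Stromal markers (8 genes, among them Col1a1, Postn and Pdgfra) summed to 64.5 to 1524 CPM in OSE-BPR tumours, 4870 to 21910 CPM in Ad-BPR and Pax8-BPR tumours, 405.6 to 2136 CPM in Ovgp1-BPR tumours, and 3859 to 9132 CPM in normal tissues. In normal ovary the granulosa, theca and luteal markers summed to 8726 to 10360 CPM and oocyte markers to 303.1 to 338.7 CPM, and smooth muscle markers reached 9982 to 12310 CPM in normal oviduct. A level in CPM is given on library sizes scaled over all 32 libraries, and a fold change, its standard error (SE) and its adjusted p come from edgeR's quasi-likelihood test with Benjamini-Hochberg adjustment over all genes tested. A gene is called when the adjusted p is under 0.05. The test sets a difference between groups against the spread between the libraries of the fit. It treats allografts as independent, which cannot be checked because their source tumours are not named.

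Per gene length, in transcripts-per-million (TPM), the group means of the members ran from 0 for Magel2 to 1282 TPM for Gnas. Gnas, which encodes the stimulatory G protein alpha subunit, was high in every group, from a mean of 595.3 ± 2.9 TPM in Ad-BPR GEMM tumours (SD, n = 2) to 1282 ± 412 TPM in Ovgp1-BPR GEMM tumours (SD, n = 3). The means of Igf2 were 635.2 ± 1046 TPM in OSE-BPR allografts (SD, n = 5) and 232.9 ± 219 TPM in OSE-BPR GEMM tumours (SD, n = 3), and those of the other 8 groups lay between 1.00 and 13.1 TPM. Peg3 averaged 335.2 ± 237 TPM in OSE-BPR GEMM tumours and 290.2 ± 135 TPM in OSE-BPR allografts, and Meg3 averaged 266.3 ± 28.6 TPM in normal ovary. Ascl2 and Phlda2, both known for their part in the placenta, stayed at or under 1.21 and 2.85 CPM in every library.

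**Figure D1:**
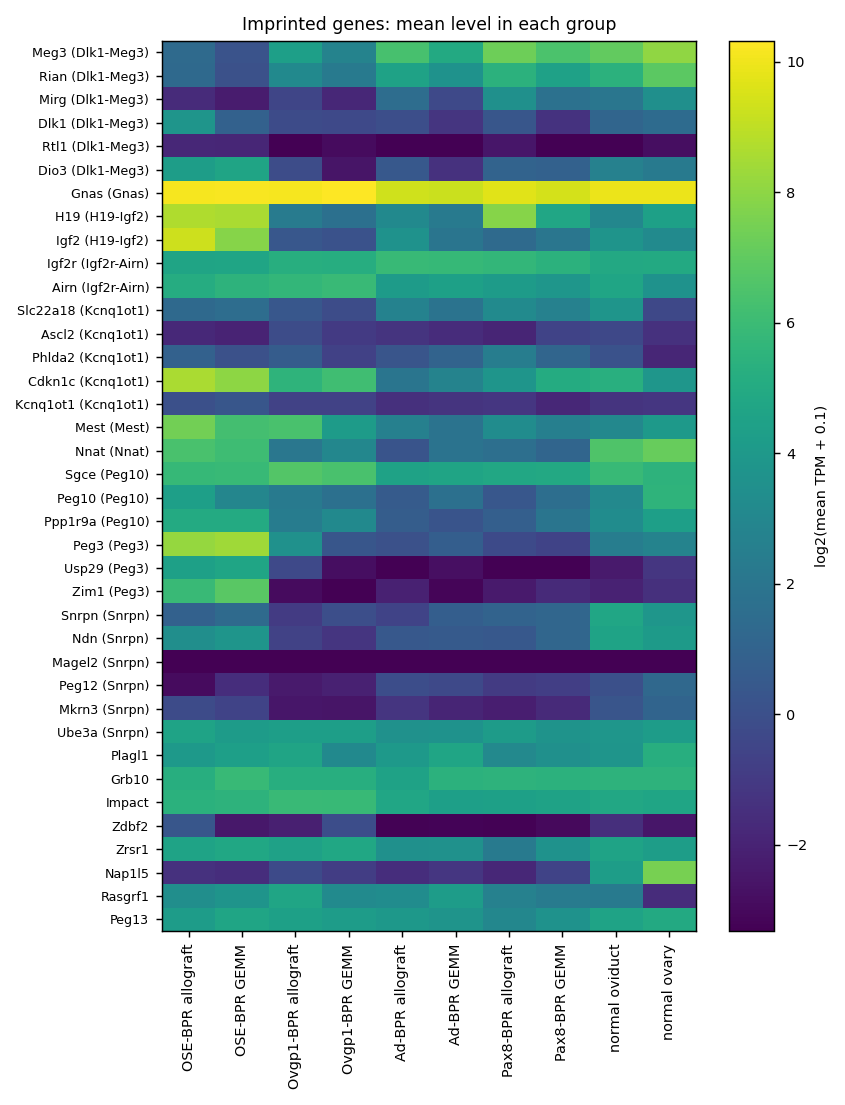
Mean level of each of the 38 imprinted genes in the 10 groups, as log2(mean TPM + 0.1), with genes (rows) ordered by cluster and groups in columns. The Peg3 and H19-Igf2 clusters are high in the OSE-BPR columns, the maternal noncoding RNAs of the Dlk1-Meg3 cluster are low there, Nap1l5 is high in normal ovary, and Magel2 is at 0 throughout.

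The comparison of OSE-BPR tumours with oviduct-origin tumours asks how imprinted genes differ with the site of origin. In GEMM tumours 16 of 37 members passed the test (43.2%), 14 higher and 2 lower in OSE-BPR, where 26% of all 20000 genes passed (14.9% higher, 11.1% lower). In allografts 23 of 37 passed (62.2%), 18 higher and 5 lower, where 37.8% of all genes passed (20.4% higher, 17.4% lower). The median log2 fold change was 0.72 over the members and 0.02 over all genes in GEMM tumours, and 1.08 over the members and 0.04 over all genes in allografts. All 16 members called in GEMM tumours were called in the same direction in allografts, which is 100% of the GEMM calls and 69.6% of the allograft calls. The libraries are separate, but the labels do not say whether the allografts derive from these GEMM tumours. Strain differs together with site of origin in both comparisons. Among the paternally expressed members 9 were higher and 0 lower in GEMM tumours, and 13 were higher and 1 lower in allografts. Among the maternally expressed members 5 were higher and 2 lower in GEMM tumours, and 5 higher and 4 lower in allografts. The groups did not overlap for 10 members in GEMM tumours, where 10.5% of all genes did not overlap, and for 9 members in allografts, where 10.1% of all genes did not. Taking both kinds of tumour, all 8 OSE-BPR libraries lay above all 18 oviduct-origin libraries for 5 members, namely Peg3, Usp29, Zim1, Kcnq1ot1 and Ppp1r9a. The share of all genes apart in this way was not counted, so no reading is made of the number. In bulk tissue, fewer cells of a type and less RNA per cell cannot be told apart, here or in the comparisons that follow.

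**Figure D2:**
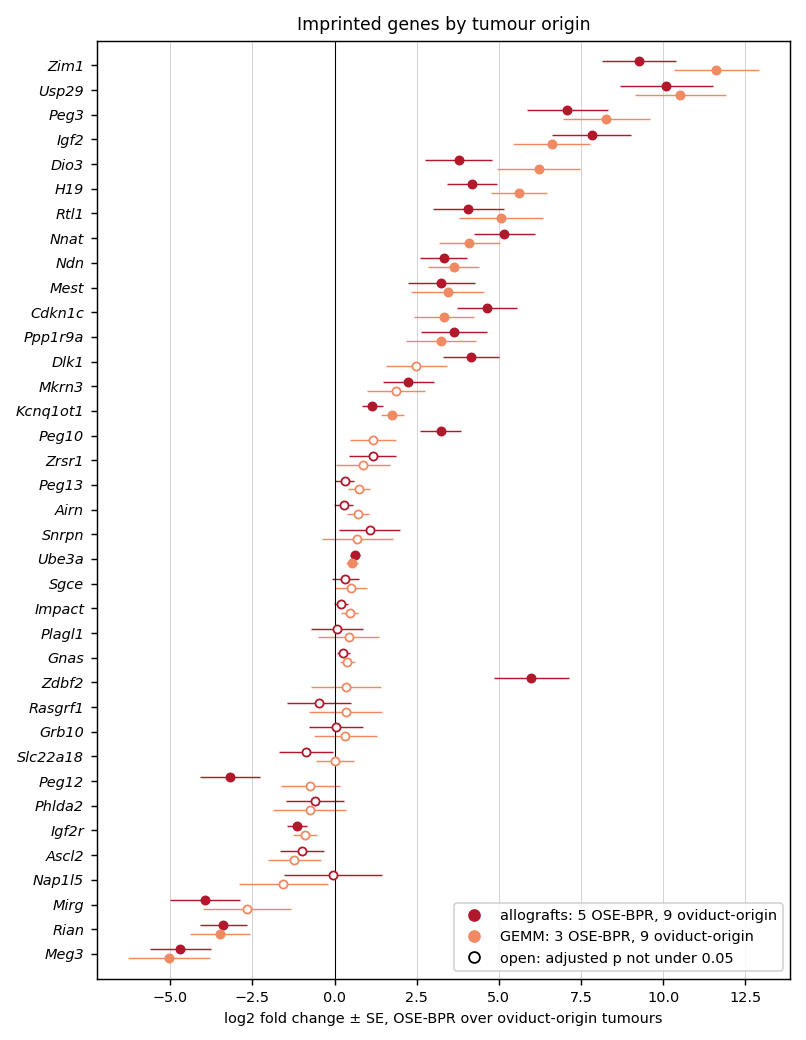
Log2 fold change of each of the 37 tested members in OSE-BPR against oviduct-origin tumours, with bars of 1 SE, for allografts (5 against 9 libraries) and GEMM tumours (3 against 9 libraries). Filled points passed edgeR's quasi-likelihood test at an adjusted p under 0.05 and open points did not. Zim1, Usp29, Peg3 and Igf2 stand at the high end and Meg3, Mirg and Rian at the low end for both kinds of tumour, and the fitted values of Usp29 and Rtl1 depend on groups with no counts.

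The Peg3 cluster lies on chromosome 7 (chr7:6671269-6967219, GRCm38) and was high in every OSE-BPR tumour. Peg3 is a paternally expressed zinc finger protein that in mice affects growth and maternal behaviour, Usp29 is a paternally expressed ubiquitin protease read in the opposite direction from a shared promoter, and Zim1 is a maternally expressed zinc finger gene next to Peg3. Between the starts of Peg3 and Usp29 lie 146 bases, so that their promoter windows (250 bases before to 50 after the gene start) share 263 bases. The Peg3 window is printed because it lies between 2 genes that both rose. It is taken from RefSeq (GRCm38.p6, chr7:6730370-6730669, minus strand), and capitals mark the palindromic cAMP response element letters TGACGTCA.
Peg3 promoter: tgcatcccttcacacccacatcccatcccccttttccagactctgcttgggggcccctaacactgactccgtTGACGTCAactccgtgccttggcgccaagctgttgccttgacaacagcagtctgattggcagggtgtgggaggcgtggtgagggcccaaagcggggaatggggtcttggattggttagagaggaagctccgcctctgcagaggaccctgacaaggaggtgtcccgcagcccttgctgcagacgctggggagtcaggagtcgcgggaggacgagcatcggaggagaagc
This match lies 178 bases before the start of Peg3, at chr7:6730590-6730597, and the same 8 bases are those matched in the Usp29 window. The letters TGACGTCA, the same on both strands, occur in 588 of 32851 RefSeq promoter windows (1.79%) and in 4 of the 46 windows of the 31 members that have one (8.7%), which are the windows of Peg3, Usp29, Meg3 and Zdbf2 and hold 3 distinct sites. This search was added to the planned ones, which were the YY1 letters and the count of CG pairs, so no reading is made of its share. The letters GCCATNTT of the YY1 motif, searched on both strands, were in 2 of 46 member windows (4.35%) and in 6.05% of all windows. Member windows held a median of 14.5 CG pairs, against 7 over all windows.

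Peg3 stood at 530.3, 1337 and 2705 CPM in the 3 OSE-BPR GEMM tumours and at 2405, 825, 1553, 1042 and 868.1 CPM in the 5 OSE-BPR allografts. The 12 Ad-BPR and Pax8-BPR tumours ran from 1.12 to 11.6 CPM with a median of 4.20 CPM, and the 6 Ovgp1-BPR tumours from 0.0567 to 151.4 CPM with a median of 0.862 CPM. Normal ovary had 34.8, 33.3 and 37.4 CPM and normal oviduct 27.1, 28.7 and 32.0 CPM. Every OSE-BPR tumour was thus above the normal tissues, and every oviduct-origin tumour except Ovgp1-BPR allograft 3 was below them. Against oviduct-origin tumours the log2 fold change was 8.27 ± 1.33 in GEMM tumours (SE, edgeR adjusted p = 0.00019) and 7.08 ± 1.23 in allografts (edgeR adjusted p = 0.00019). Against normal ovary it was 5.44 ± 1.53 in OSE-BPR GEMM tumours (edgeR adjusted p = 0.012). This call was lost without normal ovary 1 (5.43, edgeR adjusted p = 0.05) or 2 (5.42, edgeR adjusted p = 0.052).

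Usp29 was high in the libraries in which Peg3 was high. It had 20.0, 56.1 and 97.5 CPM in OSE-BPR GEMM tumours and 61.8, 28.8, 56.0, 43.5 and 43.6 CPM in OSE-BPR allografts, while 15 of the 18 oviduct-origin tumours had no count. The highest oviduct-origin value, 4.35 CPM, was that of Ovgp1-BPR allograft 3, the library that was also highest for Peg3, and the normal tissues had 0.104 to 1.15 CPM. Usp29 was called higher in OSE-BPR than in oviduct-origin GEMM tumours (edgeR adjusted p = 0.00015) and allografts (edgeR adjusted p = 0.00011), with no fold given because whole groups are at 0, and it was higher than in normal ovary by 6.18 ± 1.39 on the log2 scale (edgeR adjusted p = 0.0041).

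Zim1 is expressed from the other parental copy and was high in the same libraries. Its levels were 16.6, 385.6 and 726.3 CPM in OSE-BPR GEMM tumours and 439, 113, 211.3, 238.9 and 72.4 CPM in OSE-BPR allografts. Oviduct-origin tumours stayed at or under 3.09 CPM and normal tissues between 0.416 and 1.42 CPM. The log2 fold change against oviduct-origin tumours was 11.62 ± 1.295 in GEMM tumours (edgeR adjusted p = 3.1e-06) and 9.26 ± 1.11 in allografts (edgeR adjusted p = 4.7e-06), and against normal ovary it was 8.22 ± 1.39 (edgeR adjusted p = 0.00019). OSE-BPR GEMM 1 was the lowest OSE-BPR library for Peg3, Usp29 and Zim1, and it also had the highest stromal marker sum of the OSE-BPR libraries, 1524 CPM. The part of this difference in the result was not tested.

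Of the 31 genes within 500 kb of the cluster that are not members, 15 were tested, and 9 were higher and 0 lower in OSE-BPR than in oviduct-origin GEMM tumours, while 10 were higher and 0 lower in allografts. These shares of 60% and 66.7% stand beside 26% and 37.8% of all genes, and the largest fold among the called neighbours in GEMM tumours was below that of Peg3. Zfp773 rose by 2.60 ± 0.76 (edgeR adjusted p = 0.016), Zfp772 by 0.88 ± 0.27 (edgeR adjusted p = 0.02) and Zfp444 by 0.85 ± 0.22 (edgeR adjusted p = 0.008) on the log2 scale in GEMM tumours, all 3 of them zinc finger genes. Zfp773 and Zfp444 did not pass in allografts, with edgeR adjusted p-values of 0.068 and 0.13. Of 16 neighbours tested against normal tissue, 1 was higher and 1 lower in OSE-BPR GEMM tumours against ovary (12.5%, beside 23.2% of all genes). Against oviduct 0 were higher in any model, and 2 were lower in Ad-BPR (12.5%, beside 24.1% of all genes), 8 in Pax8-BPR (50%, beside 32.2%) and 2 in Ovgp1-BPR GEMM tumours (12.5%, beside 32.6%).

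**Figure D3:**
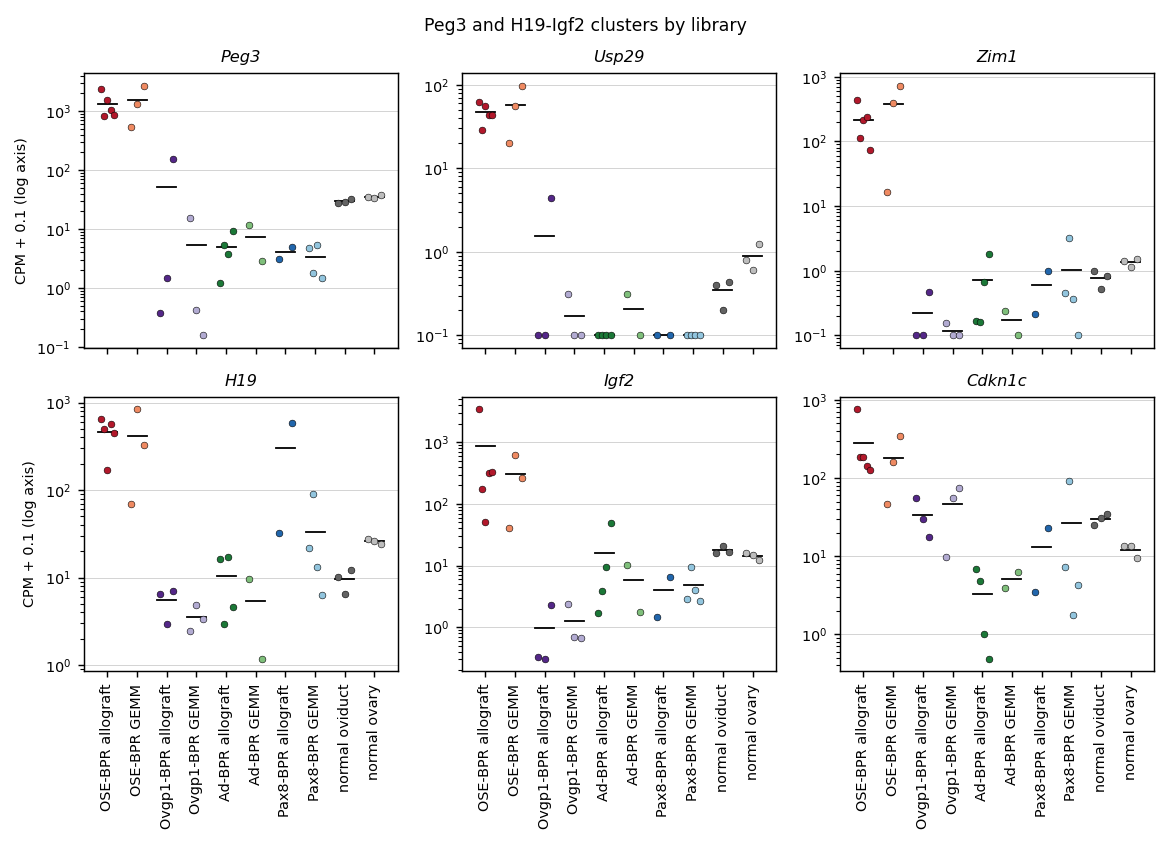
CPM of Peg3, Usp29, Zim1, H19, Igf2 and Cdkn1c in each of the 32 libraries on a log axis of CPM + 0.1, with a point per library and a line at the group mean. OSE-BPR tumours lie between 530.3 and 2705 CPM for Peg3, above every other library, and Ovgp1-BPR allograft 3 is the highest oviduct-origin tumour for Peg3 and Usp29.

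The H19-Igf2 cluster (chr7:142575529-142666816) pairs a maternally expressed noncoding RNA, H19, with the paternally expressed growth factor insulin-like growth factor 2, Igf2. A CTCF-bound control region between them normally lets enhancers reach only one of the genes on each copy. H19 is also the precursor of miR-675, whose products are printed because a rise of the host is often read as a rise of the microRNA. Capitals mark the seed (bases 2 to 8), and the sequences are from RefSeq, GRCm38.p6, minus strand.
miR-675-5p: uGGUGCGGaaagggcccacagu
miR-675-3p: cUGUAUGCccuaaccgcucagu
The entry of the miR-675 hairpin itself had no count in any of the 32 libraries, so the mature forms were not measured.

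H19 had 68.8, 843.9 and 327.5 CPM in OSE-BPR GEMM tumours and 640.5, 493.3, 170.7, 567.8 and 447.7 CPM in OSE-BPR allografts. The 18 oviduct-origin tumours ran from 1.08 to 580.1 CPM with a median of 6.66 CPM, normal ovary from 24.1 to 27.4 CPM and normal oviduct from 6.39 to 12.0 CPM. The groups overlapped only through Pax8-BPR allograft 2 at 580.1 CPM and Pax8-BPR GEMM 2 at 90.5 CPM. H19 rose against oviduct-origin tumours by 5.62 ± 0.85 in GEMM tumours (edgeR adjusted p = 0.00011) and 4.18 ± 0.75 in allografts (edgeR adjusted p = 0.00027), and against normal ovary by 4.00 ± 1.04 (edgeR adjusted p = 0.0074), on the log2 scale.

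Igf2 had 40.6, 622.8 and 265.8 CPM in OSE-BPR GEMM tumours and 3488, 174.5, 50.2, 320.6 and 332.1 CPM in OSE-BPR allografts. Oviduct-origin tumours had 0.207 to 49.6 CPM with a median of 2.43 CPM. The groups were apart within GEMM tumours and within allografts, where the highest oviduct-origin library, Ad-BPR allograft 4 at 49.6 CPM, lay just under OSE-BPR allograft 3 at 50.2 CPM. The log2 fold change against oviduct-origin tumours was 6.61 ± 1.17 in GEMM tumours (edgeR adjusted p = 0.00043) and 7.83 ± 1.21 in allografts (edgeR adjusted p = 6e-05). Against normal ovary (12.1 to 15.8 CPM) it was 4.45 ± 1.38 (edgeR adjusted p = 0.022), a call that was lost without OSE-BPR GEMM 2 (3.45, adjusted p = 0.085) and without any 1 ovary library (adjusted p 0.07 to 0.077). H19 and Igf2, which are normally read from opposite parental copies, were both higher in the same tumours.

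Of 10 tested genes within 500 kb of H19 and Igf2, 0 were higher and 2 lower in OSE-BPR than in oviduct-origin GEMM tumours. In allografts 1 was higher and 5 lower. Of all genes 26% passed in GEMM tumours and 37.8% in allografts. The largest decrease was that of Syt8, a synaptotagmin, which fell by 5.83 ± 1.53 in GEMM tumours (edgeR adjusted p = 0.0085) and 8.36 ± 1.26 in allografts (edgeR adjusted p = 4.8e-05) on the log2 scale.

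Insulin-like growth factor signalling is limited by Igf2r, a maternally expressed receptor that takes Igf2 to the lysosome, on chromosome 17. Igf2r ranged from 72.3 to 154.3 CPM in the 8 OSE-BPR tumours (median 111.2 CPM) and from 97.2 to 500.7 CPM in the 18 oviduct-origin tumours (median 192.3 CPM). It was lower in OSE-BPR than in oviduct-origin allografts by -1.15 ± 0.31 on the log2 scale (edgeR adjusted p = 0.0065), and the value in GEMM tumours was -0.90, which did not pass (edgeR adjusted p = 0.079). Airn, the paternally expressed noncoding RNA that lies antisense to Igf2r, had 8.26 to 30.9 CPM in OSE-BPR tumours, against 5.89 to 7.29 CPM in normal ovary, and was higher in OSE-BPR GEMM tumours than in ovary by 1.85 ± 0.40 (edgeR adjusted p = 0.0018). Without strand information, reads of Airn and Igf2r in their overlap cannot be told apart.

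Of 18 listed genes of the insulin-like growth factor pathway 17 were tested, and 4 were higher and 3 lower in OSE-BPR than in oviduct-origin tumours, both in GEMM tumours and in allografts. This share of 41.2% stands beside 26% of all genes in GEMM tumours and 37.8% in allografts, to which it is near. The RNA-binding protein gene Igf2bp2 fell by 4.29 ± 0.98 (edgeR adjusted p = 0.0034) and Igfbp7 by 2.26 ± 0.46 (edgeR adjusted p = 0.0013) on the log2 scale in GEMM tumours. The binding protein gene Igfbp2 rose by 3.21 ± 0.80 (edgeR adjusted p = 0.006) in the same comparison. Stc2, a stanniocalcin that inhibits the cleavage of an Igf binding protein, fell by 3.45 ± 1.06 (edgeR adjusted p = 0.021).

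Next to H19 and Igf2 on chromosome 7 lies the Kcnq1ot1 cluster (chr7:142966829-143503150). Kcnq1ot1 is a paternally expressed noncoding RNA that silences its neighbours on the same copy, and Cdkn1c is a maternally expressed inhibitor of cyclin-dependent kinases that restrains growth. Cdkn1c had 45.9, 158.1 and 343.2 CPM in OSE-BPR GEMM tumours and 763.6, 183.3, 182.9, 140.6 and 125.3 CPM in OSE-BPR allografts. Oviduct-origin tumours had 0.388 to 92.02 CPM with a median of 6.92 CPM, and normal ovary 9.42 to 13.4 CPM. The allograft groups were apart, and among GEMM tumours OSE-BPR GEMM 1 was below Pax8-BPR GEMM 2 (92.02 CPM) and 2 Ovgp1-BPR tumours. Cdkn1c rose against oviduct-origin tumours by 4.64 ± 0.91 in allografts (edgeR adjusted p = 0.00057) and 3.32 ± 0.92 in GEMM tumours (edgeR adjusted p = 0.012), and the GEMM value without OSE-BPR GEMM 3 was 2.49 with an adjusted p of 0.11. The GEMM call was also lost without Ad-BPR GEMM 1 (3.17), which leaves a single Ad-BPR GEMM tumour. Against normal ovary Cdkn1c rose by 3.92 ± 1.23 (edgeR adjusted p = 0.022), with adjusted p-values of 0.07 to 0.081 when any 1 ovary library was left out and a value of 3.08 with an adjusted p of 0.09 without OSE-BPR GEMM 3.

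Kcnq1ot1 itself was higher in the same tumours as Cdkn1c. It had 41.7, 52.6 and 80.3 CPM in OSE-BPR GEMM tumours and 39.2 to 54.9 CPM in OSE-BPR allografts, against 3.46 to 32.7 CPM in oviduct-origin tumours and 19.6 to 20.9 CPM in normal ovary. The log2 fold changes were 1.75 ± 0.35 in GEMM tumours (edgeR adjusted p = 0.0013), 1.15 ± 0.31 in allografts (edgeR adjusted p = 0.0064) and 1.54 ± 0.43 against ovary (edgeR adjusted p = 0.012). Without OSE-BPR GEMM 3 the value against ovary was 1.23 with an adjusted p of 0.069. Kcnq1ot1 lies inside Kcnq1 on the other strand, so its reads share the same limit as those of Airn. Slc22a18, a maternally expressed transporter of the same cluster, was not called in either comparison with oviduct-origin tumours. It was 4.60 ± 0.40 higher on the log2 scale in normal oviduct, with 10.6 to 13.9 CPM, than in normal ovary, with 0.219 to 0.901 CPM (edgeR adjusted p = 0.00013), and it fell by 4.64 ± 1.24 in Ovgp1-BPR GEMM tumours against oviduct (edgeR adjusted p = 0.0063).

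The Dlk1-Meg3 cluster lies on chromosome 12 (chr12:109452823-110281097) and has 6 members. In OSE-BPR against oviduct-origin GEMM tumours Dio3 and Rtl1 were higher and Meg3 and Rian lower, and in allografts 3 members were higher and 3 lower. Against normal ovary 0 were higher and 3 lower. Of all genes 26%, 37.8% and 23.2% passed in these comparisons, in that order. The maternally expressed genes of the cluster, Meg3, Rian and Mirg, are long noncoding RNAs thought to be read in one direction along the cluster, and they carry small nucleolar RNAs and microRNAs. Its paternally expressed genes are Dlk1, a transmembrane protein related to Notch ligands, Rtl1, a retrotransposon-derived gene needed for placental vessels in mice, and Dio3, the deiodinase that inactivates thyroid hormone. The RefSeq window of the Meg3 promoter (GRCm38.p6, chr12:109540746-109541045, plus strand) is printed because the maternal RNAs that fell begin there, with the letters TGACGTCA in capitals, 57 bases before the gene start.
Meg3 promoter: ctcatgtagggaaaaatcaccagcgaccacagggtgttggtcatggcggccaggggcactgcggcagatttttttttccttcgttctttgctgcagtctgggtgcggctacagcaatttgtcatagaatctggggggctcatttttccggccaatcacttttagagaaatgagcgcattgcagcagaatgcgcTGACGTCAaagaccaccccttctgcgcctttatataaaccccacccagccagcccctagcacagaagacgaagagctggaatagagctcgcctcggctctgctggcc
The microRNAs below lie within the transcribed regions of Meg3 (miR-770), Rian (miR-341 and miR-370) and Mirg (miR-410) and are printed, with their seeds in capitals, as examples of what these RNAs carry.
miR-770-5p: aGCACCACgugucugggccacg
miR-341-3p: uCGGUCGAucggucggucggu
miR-370-3p: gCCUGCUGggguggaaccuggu
miR-410-3p: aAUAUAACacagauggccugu
The 6 microRNA sequences printed for both clusters have 6 different seeds. RefSeq places 1 hairpin in Meg3, 3 in Rian and 14 in Mirg on the same strand, and all of their entries in the table had no count in the 32 libraries.

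Meg3 was nearly absent from OSE-BPR tumours, with 0.402, 0.878 and 0.305 CPM in GEMM tumours and 1.32, 6.15, 0.315, 0.193 and 0.248 CPM in allografts. The 12 Ad-BPR and Pax8-BPR tumours ran from 4.89 to 138.2 CPM (median 59.2 CPM) and the 6 Ovgp1-BPR tumours from 2.24 to 29.4 CPM (median 4.98 CPM). Normal ovary had 250.5, 203.1 and 245.9 CPM and normal oviduct 102.7, 106.9 and 95.5 CPM. All 3 OSE-BPR GEMM tumours were below all oviduct-origin GEMM tumours, and in allografts the groups overlapped through OSE-BPR allograft 2. The log2 fold change of Meg3 was -5.04 ± 1.24 against oviduct-origin GEMM tumours (edgeR adjusted p = 0.0057), -4.69 ± 0.93 in allografts (edgeR adjusted p = 0.00061) and -8.75 ± 1.35 against normal ovary (edgeR adjusted p = 7.7e-05).

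By group mean in CPM, Rian and Mirg were also lowest in the OSE-BPR groups and highest in normal ovary. In TPM, Mirg was highest in Pax8-BPR allografts (11.58, against 11.19 in normal ovary). Its mean of 0.19 TPM in Ovgp1-BPR GEMM tumours was below the 0.222 TPM of OSE-BPR allografts. Rian had 0.201 to 3.94 CPM in OSE-BPR tumours, against 1.26 to 45.8 CPM in oviduct-origin tumours and 72.4 to 115.2 CPM in normal ovary. It fell by 3.49 ± 0.92 in GEMM tumours (edgeR adjusted p = 0.0089), by 3.39 ± 0.72 in allografts (edgeR adjusted p = 0.001) and by 7.21 ± 1.04 against ovary (edgeR adjusted p = 3.8e-05) on the log2 scale, and the GEMM call was lost without OSE-BPR GEMM 3 (-3.29, adjusted p = 0.054). Mirg had no count in 6 of the 8 OSE-BPR tumours and 3 counts in all 3 OSE-BPR GEMM tumours together, against 5.09 to 8.11 CPM in normal ovary, where it was called (edgeR adjusted p = 0.0018). In allografts Mirg was lower by -3.95 ± 1.07 (edgeR adjusted p = 0.0065), and its value in GEMM tumours did not pass (-2.66, adjusted p = 0.15).

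Stromal markers were compared with the maternal RNAs library by library. Among OSE-BPR allografts, allograft 2 had the highest stromal sum, 949.7 CPM, and the highest Meg3, Rian and Mirg. Among Ovgp1-BPR tumours, allograft 3 had the highest stromal sum, 2136 CPM, and the highest Meg3, 29.4 CPM. All 8 stromal markers were detected in every group. Stromal sums were 64.5 to 1524 CPM in OSE-BPR, 4870 to 21910 CPM in Ad-BPR and Pax8-BPR and 405.6 to 2136 CPM in Ovgp1-BPR tumours, and the part of stroma in the difference of Meg3, Rian and Mirg was not tested. In OSE-BPR GEMM 1, which had a stromal sum of 1524 CPM, Meg3 was at 0.402 CPM, while Ovgp1-BPR GEMM 1, with a sum of 1206 CPM, had 6.94 CPM. Pax8-BPR GEMM tumours 1 to 4 had stromal sums of 8115, 9557, 12350 and 4870 CPM. Their Meg3 was 28.9, 78.9, 112.4 and 24.3 CPM, in the same order as the sums. Pax8-BPR allografts 1 and 2 had sums of 6383 and 5740 CPM with 138.2 and 79.5 CPM of Meg3. Ad-BPR libraries ran the other way. Ad-BPR GEMM 2 had a stromal sum of 12130 CPM and 4.89 CPM of Meg3, and GEMM 1 a sum of 7650 CPM and 38.9 CPM of Meg3. Ad-BPR allografts 1 and 2 had sums of 21910 and 15110 CPM with 39.5 and 11.8 CPM of Meg3, and allografts 3 and 4 sums of 8576 and 8801 CPM with 95.3 and 81.0 CPM of Meg3.

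Of the paternal genes of the cluster, Dio3 and Rtl1 were called higher in OSE-BPR than in oviduct-origin tumours of both kinds, and Dlk1 in allografts. Dlk1 had 1.48, 2.03 and 0.854 CPM in OSE-BPR GEMM tumours and 4.59, 19.6, 0.567, 5.86 and 22.7 CPM in OSE-BPR allografts, against at most 1.33 CPM in oviduct-origin tumours and 1.06 to 3.09 CPM in normal tissues. It rose by 4.15 ± 0.85 in allografts (edgeR adjusted p = 0.00078), and in GEMM tumours, where the groups did not overlap, its value of 2.49 did not pass (edgeR adjusted p = 0.051). Dio3 had 0.201, 10.2 and 60.9 CPM in OSE-BPR GEMM tumours and 68.5, 5.12, 4.09, 10.1 and 1.49 CPM in OSE-BPR allografts. Oviduct-origin tumours had 0 to 3.24 CPM of Dio3, and the log2 fold changes were 6.21 ± 1.26 in GEMM tumours (edgeR adjusted p = 0.0014) and 3.77 ± 1.03 in allografts (edgeR adjusted p = 0.0071), the allograft call being lost without OSE-BPR allograft 1 (2.00, adjusted p = 0.11). The groups overlapped for Dio3 because OSE-BPR GEMM 1 and OSE-BPR allograft 5 were low.

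Rtl1 was low throughout, at 0 to 1.179 CPM in OSE-BPR tumours and 0 to 0.584 CPM in oviduct-origin tumours, and was called higher in GEMM tumours (edgeR adjusted p = 0.011) and allografts (edgeR adjusted p = 0.0092). No fold is given since whole groups are at 0, and without OSE-BPR GEMM 3 the GEMM adjusted p was 0.054. By limma neither call passed (adjusted p = 0.096 in GEMM tumours and 0.058 in allografts). Of 5 tested genes within 500 kb of the cluster, 0 were called in GEMM tumours and 2 were higher in allografts, with Hsp90aa1 higher by 0.56 ± 0.18 (edgeR adjusted p = 0.017). Of all genes 26% were called in GEMM tumours and 37.8% in allografts.

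**Figure D4:**
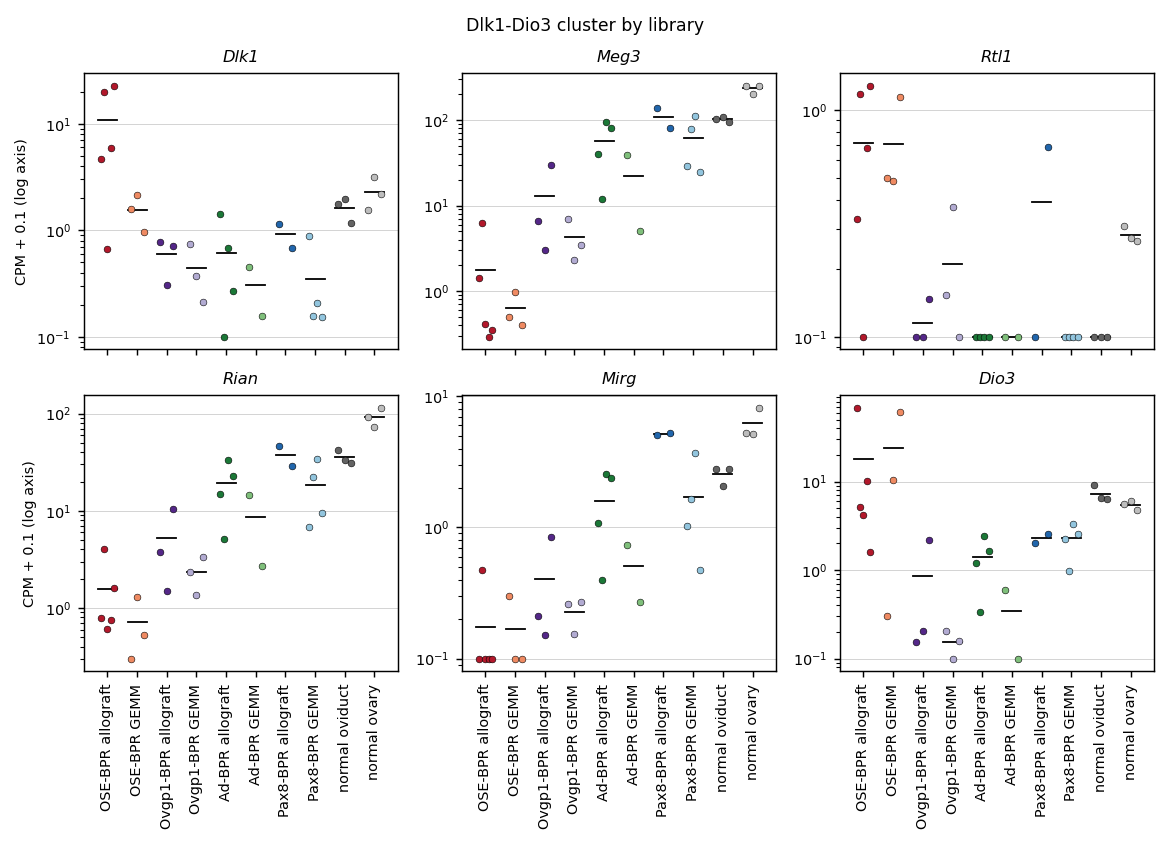
CPM of Dlk1, Meg3, Rtl1, Rian, Mirg and Dio3 in each of the 32 libraries on a log axis of CPM + 0.1, with a point per library and a line at the group mean. Meg3 lies at or under 6.15 CPM in the 8 OSE-BPR tumours and at 95.5 to 250.5 CPM in the 6 normal libraries, while Dlk1 is highest in OSE-BPR allografts 2 and 5.

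The Peg10 cluster on chromosome 6 holds Sgce and Peg10, a divergent paternal pair with 98 bases between their starts, and the maternally expressed Ppp1r9a. Peg10, a retrotransposon-derived gene needed for the placenta in mice, had 137.1, 112.7, 13.5, 31.1 and 71.0 CPM in OSE-BPR allografts, against 1.54 to 23.0 CPM in oviduct-origin allografts, and rose by 3.23 ± 0.63 on the log2 scale (edgeR adjusted p = 0.00054). Its value in GEMM tumours was 1.17 and did not pass (edgeR adjusted p = 0.22). OSE-BPR GEMM tumours had 40.8, 24.7 and 12.6 CPM of Peg10, against 170.8 to 200.3 CPM in normal ovary, and were lower by -2.83 ± 0.87 (edgeR adjusted p = 0.02), a call lost without OSE-BPR GEMM 2 (-2.75, adjusted p = 0.07) or 3 (-2.50, adjusted p = 0.088). Sgce, the epsilon-sarcoglycan gene, was not called in either OSE-BPR comparison with oviduct-origin tumours although it starts beside Peg10. Ppp1r9a, an actin-binding scaffold, had 83.6 to 231.2 CPM in OSE-BPR tumours, against 0.228 to 69.9 CPM in oviduct-origin tumours, and rose by 3.24 ± 1.06 in GEMM tumours (edgeR adjusted p = 0.03) and 3.64 ± 1.00 in allografts (edgeR adjusted p = 0.0074). The GEMM call of Ppp1r9a was lost without OSE-BPR GEMM 2 (3.3, edgeR adjusted p = 0.063) or 3 (2.79, edgeR adjusted p = 0.12). The call was also lost without Ad-BPR GEMM 2, which leaves a single Ad-BPR GEMM tumour, and the value was then 2.87.

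Mest, a paternally expressed hydrolase-like protein of chromosome 6, differed widely within OSE-BPR. It had 3.28, 63.3 and 214.1 CPM in GEMM tumours and 761.7, 178, 59.7, 58.2 and 1.99 CPM in allografts. Oviduct-origin tumours had 3.28 to 32.5 CPM except Ovgp1-BPR allograft 2, with 287.3 CPM. Mest was called higher in OSE-BPR in both comparisons (3.44 ± 1.11 with edgeR adjusted p = 0.027 in GEMM tumours, 3.25 ± 1.02 with edgeR adjusted p = 0.016 in allografts). Both calls were lost when the highest OSE-BPR library was left out (1.95 with adjusted p = 0.3 and 1.74 with adjusted p = 0.16). Both calls were also lost by limma (adjusted p = 0.22 in GEMM tumours and 0.1 in allografts). The GEMM call was lost as well without Ad-BPR GEMM 1 (3.32) or 2 (3.45), and the allograft call without Pax8-BPR allograft 1 (3.22) or 2 (3.13). Each of these fits leaves a group with a single library.

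Zdbf2, a paternally expressed zinc finger gene, was higher in OSE-BPR than in oviduct-origin allografts. OSE-BPR allografts had 3.10, 7.22, 19.8, 2.45 and 2.23 CPM, against 0 to 1.73 CPM in oviduct-origin allografts, a log2 fold change of 5.99 ± 1.14 (edgeR adjusted p = 0.00043). In GEMM tumours the value was 0.35 and did not pass (edgeR adjusted p = 0.85), with 0.183 to 0.737 CPM in OSE-BPR. Oviduct-origin GEMM tumours had 0 to 15.2 CPM of Zdbf2, and the highest was Ovgp1-BPR GEMM 1. The difference between the allograft and GEMM contrasts was 5.63 ± 1.80 on the log2 scale and did not pass over all genes (edgeR adjusted p = 1).

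Nnat, a paternally expressed membrane proteolipid of the brain and endocrine tissues, was high in normal tissue and in some OSE-BPR tumours. It had 85.5, 18.5 and 5.13 CPM in OSE-BPR GEMM tumours and 15.4, 24.0, 7.55, 23.1 and 157.4 CPM in OSE-BPR allografts, against 0.0569 to 6.66 CPM in oviduct-origin tumours. Normal oviduct had 53.9, 50.7 and 78.9 CPM and normal ovary 86.0 to 91.4 CPM. Nnat rose in OSE-BPR by 4.09 ± 0.93 in GEMM tumours (edgeR adjusted p = 0.0032) and 5.16 ± 0.93 in allografts (edgeR adjusted p = 0.00027), and the GEMM call was lost without OSE-BPR GEMM 1 (2.47, adjusted p = 0.065). In every oviduct-origin GEMM model Nnat was lower than in normal oviduct, by -4.99 ± 1.49 in Ad-BPR (edgeR adjusted p = 0.017), -5.61 ± 1.13 in Pax8-BPR (edgeR adjusted p = 0.00057) and -3.94 ± 1.17 in Ovgp1-BPR (edgeR adjusted p = 0.012).

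The Snrpn cluster lies on chromosome 7 and is the mouse counterpart of the Prader-Willi region. Snrpn encodes a spliceosome protein and is read from the paternal copy together with Ndn, which encodes the growth-restraining protein necdin, Magel2, Mkrn3 and Peg12. Snrpn had 0 to 6.10 CPM in the 26 tumours, against 27.6 to 35.2 CPM in normal oviduct and 14.9 to 17.0 CPM in normal ovary, so that every tumour was below every normal library. Nap1l5, which is not in this cluster, was the other member with this pattern. The share of all genes with this pattern was not counted. The decrease of Snrpn against normal oviduct passed in Pax8-BPR (-3.66 ± 1.15, edgeR adjusted p = 0.017) and Ovgp1-BPR GEMM tumours (-5.17 ± 1.40, edgeR adjusted p = 0.0068), and its values in Ad-BPR (-4.25, adjusted p = 0.053) and in OSE-BPR against ovary (-2.70, adjusted p = 0.12) did not.

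Ndn had 3.85 and 1.82 CPM in Ad-BPR GEMM tumours, 2.69 to 10.7 CPM in Pax8-BPR and 0.273 to 0.900 CPM in Ovgp1-BPR GEMM tumours, against 46.5 to 64.7 CPM in normal oviduct. It fell in all 3 models against oviduct, by 4.27 ± 1.23 in Ad-BPR (edgeR adjusted p = 0.014), 3.41 ± 0.88 in Pax8-BPR (edgeR adjusted p = 0.0047) and 6.45 ± 1.16 in Ovgp1-BPR (edgeR adjusted p = 2e-04) on the log2 scale. In OSE-BPR tumours Ndn ran from 1.16 to 61.9 CPM, against 35.7 to 39.5 CPM in ovary, and was not called against ovary (-0.53, edgeR adjusted p = 0.72). It was higher in OSE-BPR than in oviduct-origin GEMM tumours by 3.63 ± 0.78 (edgeR adjusted p = 0.0021), a call lost without OSE-BPR GEMM 1 (1.89, adjusted p = 0.087), and in allografts by 3.32 ± 0.72 (edgeR adjusted p = 0.0012). Mkrn3 and Peg12 stayed at or under 2.79 CPM in tumours, against 1.3 to 4.12 CPM in normal tissues. Ube3a, the maternally expressed ubiquitin ligase of the same cluster, was not called lower in any tumour model against normal tissue, and its calls of 0.53 in OSE-BPR GEMM tumours (edgeR adjusted p = 0.03) and 0.62 in allografts (edgeR adjusted p = 0.0029) against oviduct-origin tumours were small increases. The GEMM call of Ube3a was lost without any 1 OSE-BPR GEMM tumour or either Ad-BPR GEMM tumour (edgeR adjusted p 0.05 to 0.11), with no filter on low counts (0.098) and by limma (0.33).

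Nap1l5, a paternally expressed nucleosome assembly protein relative, was at 0 to 2.05 CPM in all 26 tumours. It had 36.0, 4.57 and 21.1 CPM in normal oviduct and 208.6, 164.9 and 186.2 CPM in normal ovary, so that no tumour reached a normal library. Nap1l5 fell by 10.31 ± 1.53 on the log2 scale in OSE-BPR GEMM tumours against ovary (edgeR adjusted p = 5.1e-05), and its log2 fold changes against oviduct were -5.84 ± 1.53 in Ad-BPR (edgeR adjusted p = 0.008), -5.14 ± 1.08 in Pax8-BPR (edgeR adjusted p = 0.00082) and -5.85 ± 1.27 in Ovgp1-BPR GEMM tumours (edgeR adjusted p = 0.0012). These 3 calls were lost when oviduct libraries 1 and 3 were left out (-2.94 to -3.71, adjusted p 0.09 to 0.17). The granulosa, theca and luteal markers summed to 8.72 to 249.2 CPM in tumours, to 1143, 88.3 and 513.2 CPM in oviduct libraries 1, 2 and 3, in which Nap1l5 had the same order, and to 8726 to 10360 CPM in ovary. Their part in the decrease of Nap1l5 was not tested. Of these 9 markers Lhcgr was at 0 in OSE-BPR GEMM tumours, and Cyp19a1, Lhcgr and Fshr were at 0 in Ad-BPR and Ovgp1-BPR GEMM tumours.

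Rasgrf1, a paternally expressed activator of Ras, had 1.14, 19.2 and 59.3 CPM in OSE-BPR GEMM tumours, against 0.164 to 0.901 CPM in normal ovary, and was 5.90 ± 1.66 higher on the log2 scale (edgeR adjusted p = 0.012). This call was lost without OSE-BPR GEMM 3 (4.52, adjusted p = 0.058) and by limma (2.73, adjusted p = 0.07). It was also lost without normal ovary 2 or 3 (5.67 and 5.49, edgeR adjusted p = 0.056 for each). In normal oviduct Rasgrf1 had 7.81 to 13.8 CPM and was 4.63 ± 0.53 higher than in ovary (edgeR adjusted p = 0.00043). Plagl1, a paternally expressed zinc finger protein that regulates other imprinted genes in mice, ranged from 2.10 to 108.2 CPM in OSE-BPR tumours and was called in neither comparison with oviduct-origin tumours.

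GEMM tumours of each model were also set against the normal tissue of their site. In OSE-BPR GEMM tumours against normal ovary 15 of 37 members passed (40.5%), 9 higher and 6 lower, and 23.2% of all 20887 genes passed (11.6% higher, 11.6% lower). In Ovgp1-BPR GEMM tumours against normal oviduct 14 passed (37.8%), 2 higher and 12 lower, with 32.6% of all genes (15.3% higher, 17.3% lower). In Pax8-BPR 6 passed (16.2%), 0 higher and 6 lower, with 32.2% of all genes (15.9% higher, 16.3% lower). In Ad-BPR 3 passed (8.11%), 0 higher and 3 lower, with 24.1% of all genes (11.7% higher, 12.3% lower). The Ad-BPR count depended on the fit, with 22 members (2 higher) when only the libraries of the comparison were fitted, 8 with DESeq2 and 9 with limma, so no reading is made of its share. The groups did not overlap for 25 members in OSE-BPR against ovary (48.5% of all genes). Against oviduct they did not overlap for 28 members in Ad-BPR (65.8% of all genes), 17 in Pax8-BPR (42% of all genes) and 22 in Ovgp1-BPR (54.2% of all genes). The comparisons with oviduct share their oviduct libraries, and Ad-BPR has only 2 GEMM tumours. Nnat, Ndn and Nap1l5 were lower in each of them. In Ad-BPR, leaving out tumour 2 ended the calls of all 3 genes (adjusted p 0.11 to 0.16). Oviduct libraries 1 and 3, which held the most granulosa, theca and luteal marker RNA of the oviduct libraries, were left out together as a further alternative chosen after the data were seen. The calls were then 0 in Ad-BPR, 2 in Pax8-BPR and 7 in Ovgp1-BPR, from comparisons with a single oviduct library.

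Ovgp1-BPR GEMM tumours had further decreases against normal oviduct in the Dlk1-Meg3 cluster and in Igf2. Meg3 had 6.94, 2.24 and 3.40 CPM, against 95.5 to 106.9 CPM in oviduct, and fell by 4.60 ± 1.09 on the log2 scale (edgeR adjusted p = 0.0027). Rian fell by 3.98 ± 0.88 (edgeR adjusted p = 0.0015), and Mirg by 4.19 ± 1.24 (edgeR adjusted p = 0.012), a call lost without Ovgp1-BPR GEMM 2 (adjusted p = 0.056). Dio3 had 3 counts over the 3 tumours (0 to 0.106 CPM), against 6.25 to 9.01 CPM in oviduct (edgeR adjusted p = 0.0058). Stromal markers summed to 405.6 to 1206 CPM in these tumours and 5847 to 9132 CPM in oviduct, and their part was not tested. Of the 5 tested genes within 500 kb of the cluster, 0 were higher and 4 lower in the same comparison. Of all genes 32.6% passed there (15.3% higher, 17.3% lower). Igf2 had 2.28, 0.600 and 0.567 CPM, against 16.0, 20.9 and 16.6 CPM in oviduct (-3.94 ± 1.41, edgeR adjusted p = 0.034), but the call was lost without any 1 oviduct library or without Ovgp1-BPR GEMM 2 or 3 (adjusted p 0.054 to 0.12). The higher members were Airn (1.13 ± 0.39, edgeR adjusted p = 0.029) and Ube3a (0.69 ± 0.20, edgeR adjusted p = 0.011). The Airn call was lost with no filter on low counts (adjusted p = 0.053) and without Ovgp1-BPR GEMM 2 or 3 or oviduct 1 or 3 (adjusted p 0.062 to 0.12). The Ube3a call was lost by limma (adjusted p = 0.2) and without Ovgp1-BPR GEMM 3 (edgeR adjusted p = 0.089).

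Ovgp1-BPR tumours were also set against Ad-BPR and Pax8-BPR tumours, which share the strain and the organ but differ in the source of Cre. By sample label Ovgp1-BPR has Trp53 KozR172H ki/+, and Ad-BPR and Pax8-BPR have Trp53 fl/fl. Model, Cre and Trp53 allele therefore cannot be told apart in this comparison. In GEMM tumours 8 members passed (21.6%), 6 higher and 2 lower, with 22.7% of all genes (12.5% higher, 10.2% lower), and in allografts 7 passed (18.9%), 6 higher and 1 lower, with 22.3% of all genes (13.7% higher, 8.6% lower), so the members' share was near that of all genes in both. Airn, Impact, Sgce, Ube3a and Zdbf2 were higher in both kinds of tumour, which is 62.5% of the GEMM calls and 71.4% of the allograft calls. The GEMM call of Sgce (edgeR adjusted p = 0.05) was lost with RLE factors (0.055), with no filter on low counts (0.07), and without either Ad-BPR tumour, Pax8-BPR tumour 1 or 3, or any 1 Ovgp1-BPR tumour (0.059 to 0.18). Impact, a paternally expressed inhibitor of the Gcn2 stress kinase, had 71.2, 92.4 and 78.4 CPM in Ovgp1-BPR GEMM tumours, against 29.1 to 44.1 CPM in Ad-BPR and Pax8-BPR GEMM tumours, and rose by 1.16 ± 0.28 (edgeR adjusted p = 0.0061). Airn rose by 1.60 ± 0.36 (edgeR adjusted p = 0.0043) with 20.1, 34.0 and 39.0 CPM, against 4.19 to 13.2 CPM.

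Several other calls in this comparison were lost without 1 library or rested on it. Zdbf2 was 5.43 ± 1.37 higher in GEMM tumours (edgeR adjusted p = 0.0085) with 15.2 CPM in Ovgp1-BPR GEMM 1 and 0.109 and 0.623 CPM in the others, and without that library the value was 1.60 with an adjusted p of 0.36. H19 was lower in Ovgp1-BPR allografts by -3.37 ± 1.06 (edgeR adjusted p = 0.027), and without Pax8-BPR allograft 2 the value was -1.78 with an adjusted p of 0.2. The 93 counts of Usp29 in Ovgp1-BPR allografts all came from allograft 3, and the Ad-BPR and Pax8-BPR allografts had none, so its mean was at least 7.6-fold higher against a floor of 3 counts per library (edgeR adjusted p = 0.013). Meg3 was lower in Ovgp1-BPR GEMM tumours by -3.12 ± 1.09 (edgeR adjusted p = 0.043), and without Ad-BPR GEMM 1 the value was -2.05 with an adjusted p of 0.19.

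Allografts were compared with GEMM tumours over the 4 models to ask whether transfer changes these genes. By edgeR's quasi-likelihood test 0 of 37 members and 0% of all 20000 genes passed, with 4 members and 1210 genes at an unadjusted p under 0.05, and limma also gave 0 of each. DESeq2 called 34 genes and 0 members. The 4 members were Dlk1 (1.62), H19 (1.25), Meg3 (1.37) and Rian (1.15), as log2 fold changes with an adjusted p of 0.8 each. The OSE-BPR contrast differed between allografts and GEMM tumours for 0 members by edgeR, with 1 member and 443 genes at an unadjusted p under 0.05, and DESeq2 gave 14 genes and 0 members.

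Normal oviduct and normal ovary, from the same mice, differed in most members. Of 33 tested, 22 passed (66.7%), 10 higher and 12 lower in oviduct, where 53% of all 17334 genes passed (28.5% higher, 24.5% lower). Peg10 (21.4 to 42.0 CPM in oviduct, 170.8 to 200.3 CPM in ovary) was lower by -2.34 ± 0.26 (edgeR adjusted p = 0.00035), and H19 by -1.36 ± 0.23 (edgeR adjusted p = 0.0025). Meg3, Rian and Mirg were lower by -1.11 to -1.31, while Cdkn1c (24.6 to 34.9 CPM in oviduct, 9.42 to 13.4 CPM in ovary) was higher by 1.40 ± 0.19 (edgeR adjusted p = 9e-04). Peg3 and Igf2, both called higher in OSE-BPR than in oviduct-origin tumours, were not called between the normal tissues. When oviduct and ovary were compared in the fit of all 32 libraries, 3 members and 2605 genes passed. With the animal as a block 21 of the 22 calls remained, and Mkrn3 was lost (-0.73, edgeR adjusted p = 0.078). Oocyte markers summed to 112.4, 4.11 and 93.6 CPM in oviduct libraries 1, 2 and 3, and granulosa, theca and luteal markers to 1143, 88.3 and 513.2 CPM. The part of such RNA in the differences between oviduct and ovary was not tested.

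Grb10 and Zrsr1, both on chromosome 11, were singled out after their values were seen. Grb10 (chr11:11930508-12038683, minus strand) is a maternally expressed adaptor that inhibits insulin and Igf receptor signalling, and Zrsr1 (chr11:22972005-22976496, plus strand) is a paternally expressed splicing factor gene that lies within Commd1. In the Ovgp1-BPR GEMM tumours Grb10 had 15.8, 262.8 and 10.1 CPM and Zrsr1 68.6, 0.655 and 36.7 CPM. In the Ovgp1-BPR allografts Grb10 had 8.52, 259 and 14.9 CPM and Zrsr1 45.4, 0.466 and 35.1 CPM. The tumours of this model that were high in Grb10 were near 0 in Zrsr1, and those high in Zrsr1 were low in Grb10. Normal tissues had 127.8 to 146.7 CPM of Grb10 and 26.8 to 41.0 CPM of Zrsr1. Outside this model Pax8-BPR allograft 2 had 215.7 CPM of Grb10 with 1.46 CPM of Zrsr1, and OSE-BPR allograft 3 had 4.47 CPM of Grb10 with 30.5 CPM of Zrsr1. The pattern did not hold in OSE-BPR GEMM 1, which had the highest Grb10 of all libraries, 269.8 CPM, with 37.7 CPM of Zrsr1. Nor did it hold in several others, among them OSE-BPR GEMM 2 (122.4 CPM of Grb10, 37.4 CPM of Zrsr1) and OSE-BPR allograft 4 (137.9 and 36.6 CPM). Ad-BPR allograft 4 was low in both, with 28.5 CPM of Grb10 and 8.77 CPM of Zrsr1. The Ad-BPR GEMM tumours had 103.9 and 139.2 CPM of Grb10 with 15.8 and 14.2 CPM of Zrsr1. Neither gene was called in a comparison between tumour groups. Copy number and reads per parental copy were not measured, and the labels do not say whether the allografts derive from these GEMM tumours.

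**Figure D5:**
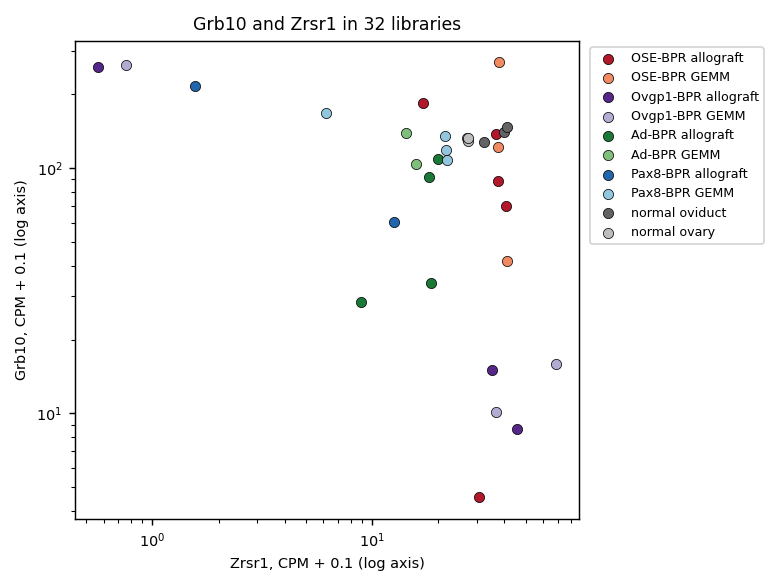
Zrsr1 against Grb10, as CPM + 0.1 on log axes, with a point per library for all 32 libraries and colours for the models. Ovgp1-BPR tumours fall at 2 places, 4 with 8.52 to 15.8 CPM of Grb10 and 35.1 to 68.6 CPM of Zrsr1, and 2 with 259 and 262.8 CPM of Grb10 and under 1 CPM of Zrsr1.

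Other imprinted genes, 40 of which were listed and 35 tested, were set beside the members. In OSE-BPR against oviduct-origin GEMM tumours 8 were higher and 4 lower, in allografts 11 higher and 3 lower, and against normal ovary 3 higher and 11 lower. These shares of 34.3%, 40% and 40% stand beside 26%, 37.8% and 23.2% of all genes, so the share in allografts was near that of all genes. Slc38a4, an amino acid transporter expressed paternally in the placenta, had 13.7 to 116.3 CPM in OSE-BPR tumours, against 0 to 9.57 CPM in oviduct-origin tumours, and rose by 6.54 ± 0.97 in GEMM tumours (edgeR adjusted p = 8.9e-05). Inpp5f, an inositol phosphatase, had 139.2 to 332.3 CPM in OSE-BPR tumours, against 13.3 to 112 CPM, and rose by 2.45 ± 0.26 (edgeR adjusted p = 1.6e-06). Asb4 fell by 7.35 ± 1.45 in OSE-BPR GEMM tumours against ovary (edgeR adjusted p = 0.00085). In the oviduct models Slc22a3, an organic cation transporter of the Igf2r cluster, was lower than in oviduct by -6.16 ± 1.72 in Ad-BPR (edgeR adjusted p = 0.012), -7.33 ± 1.33 in Pax8-BPR (edgeR adjusted p = 2e-04) and -7.57 ± 1.54 in Ovgp1-BPR (edgeR adjusted p = 0.00068).

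The factors that keep imprints through cell division were also measured, from a list of 20 genes. In OSE-BPR against oviduct-origin GEMM tumours 2 of 18 tested were higher and 0 lower, and in allografts 5 were higher and 0 lower. These shares of 11.1% and 27.8% are below the 26% and 37.8% of all genes. Tet1, which oxidises methylated cytosine, rose by 3.82 ± 0.68 in GEMM tumours (edgeR adjusted p = 0.00043) with 9.18, 34.0 and 32.5 CPM in OSE-BPR, against 0.114 to 14.4 CPM in oviduct-origin GEMM tumours. Zfp57, a zinc finger protein that protects methylated imprints in mouse embryos, rose by 1.59 ± 0.47 in GEMM tumours (edgeR adjusted p = 0.018) and 2.10 ± 0.42 in allografts (edgeR adjusted p = 0.00065). Against normal oviduct 8 of 19 were higher and 2 lower in Ad-BPR, 7 higher and 1 lower in Pax8-BPR and 8 higher and 3 lower in Ovgp1-BPR GEMM tumours (52.6%, 42.1% and 57.9%, beside 24.1%, 32.2% and 32.6% of all genes). Those higher in all 3 included the maintenance methyltransferase Dnmt1, at 2.00 ± 0.31 (edgeR adjusted p = 6.4e-05), 1.33 ± 0.27 (edgeR adjusted p = 0.00069) and 1.87 ± 0.29 (edgeR adjusted p = 3.7e-05) in that order of models, and its partner Uhrf1, at 3.45, 3.44 and 3.25 on the log2 scale, both of which are also cell cycle genes. In OSE-BPR GEMM tumours against ovary 3 were higher and 3 lower (31.6%, beside 23.2% of all genes), and the oocyte gene Dppa3 had no count in the tumours, at least 67.2-fold lower than the 10.7 to 14.1 CPM of ovary.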

How the data were processed

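The authors' deposited tables give RSEM expected counts and TPM per gene for 32 libraries. Per the submitters' processing notes, reads were handled with bcl2fastq, cutadapt 1.18, Picard, STAR 2.7.0f and RSEM 1.3.1 on mm10/GRCm38, and no source used here states whether counting used the strand. The deposited expected counts were rounded to whole numbers and tested with edgeR 4.0.16 (quasi-likelihood F test, TMM factors, filterByExpr with a minimum count of 10, Benjamini-Hochberg adjusted p under 0.05), and the deposited TPM were used for levels across genes. Libraries were grouped by their labels. Tumours against normal tissue were fitted over all 32 libraries (20887 genes), tumours against tumours over 26 (20000 genes) and normal tissues over 6 (17334 genes). SE is the absolute log2 fold change divided by the square root of F.

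Alternatives were DESeq2 1.42.0, limma 3.58.1 on log2(TPM + 1), RLE factors, no filter, other library sets, the animal as a block for normal tissues, and leaving out each library. The block was used because oviduct and ovary came from the same animals, and the correlations of their deviations were -0.084, -0.044 and 0.06. No 2 libraries of a group agreed within counting noise (lowest chi-square per degree of freedom 10.9 over 39 pairs). Steps were tested on simulated data. Coordinates are from GENCODE M21 (GRCm38), which matched all 55450 identifiers, and sequences from RefSeq GRCm38.p6.

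The members and lists were chosen with earlier results of these data known. Genes named are the members of the Peg3, H19-Igf2 and Dlk1-Meg3 clusters, up to 20 further members called without overlap in at least 1 comparison, up to 4 called genes of each other list with at least 10 CPM, and up to 3 neighbours of each cluster within 500 kb. Other members are named to place them in their cluster, and Grb10 and Zrsr1 after their values were seen.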

Additional observations from a re-analysis of the deposited data

Results flagged for a closer look

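In groups of 4 or 5 libraries, 24 of 107 tests over members found a library whose gap to its neighbour passed Dixon's 95% limit, and they covered 22 genes. The 5% that chance would give holds for normally distributed values and independent tests. CPM without a log and linked members of a library need not meet this, so no reading is made of the share. All values are CPM.

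In OSE-BPR allografts, allograft 1 stood apart for the growth factor Igf2 (3488), the growth inhibitor Cdkn1c (763.6), Mest (761.7) and Dio3 (68.5). Allograft 2 stood apart for the linked noncoding RNAs Meg3 (6.15), Rian (3.94) and Mirg (0.377), with a stromal marker sum of 949.7, the highest of the 5. Allograft 3 was highest for Zdbf2 (19.8), allograft 4 for Plagl1 (108.2) and allograft 5 for Nnat (157.4). The part of stroma in the values of allograft 2 was not tested.

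In Pax8-BPR GEMM tumours, tumour 2 was highest for Zim1 (3.09), Peg10 (35.1), Ascl2 (1.21), Cdkn1c (92.02) and Ppp1r9a (62.3), and lowest for Impact (32.4) and Zrsr1 (6.06). Tumour 1 was highest for Dlk1 (0.778) and Nap1l5 (2.05), tumour 4 for Rasgrf1 (41.8), and tumour 3 was lowest for Gnas (483.5). In Ad-BPR allografts, allograft 4 stood apart for Igf2 (49.6) and Slc22a18 (13.7), and allograft 1 for Mkrn3 (1.40).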

How the results depend on the processing

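Of 114 member calls, 113 kept their direction and stayed called with DESeq2 and 113 with RLE factors, 95 with limma on log2(TPM + 1) and 105 with no filter on low counts. No result reversed. Without low-count filtering and by limma, Ovgp1-BPR against Ad-BPR and Pax8-BPR GEMM tumours gave 4 and 5 member calls in place of 8. Against oviduct, DESeq2 called 10 members for Pax8-BPR and 8 for Ad-BPR, besides 15 in Ovgp1-BPR against Ad-BPR and Pax8-BPR allografts, and 34 genes for allograft against GEMM and 14 for the difference of the OSE-BPR contrast. limma called 9 members in Ad-BPR. With only the libraries of the comparison, Ad-BPR gave 22 members and 8483 genes and Pax8-BPR 10 members. In the fit of all 32 libraries, Ovgp1-BPR against Ad-BPR and Pax8-BPR allografts gave 14 members, and oviduct against ovary 3 members and 2605 genes. Without oviduct replicates 1 and 3, Ovgp1-BPR had 7 members and 2271 genes called, Pax8-BPR 2 members and 2301 genes, and Ad-BPR 0 members and 1485 genes. The cause was not tested. With the animal as a replicate block, oviduct against ovary gave 7971 genes and 21 members. By limma on TPM the median of all genes shifted by up to 0.14 on the log2 scale.

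Leaving out 1 library each, 894 member calls remained and 117 were lost. Members (and genes) called ranged over 11 to 16 (3114 to 4934) in OSE-BPR against ovary, and, against oviduct, 10 to 15 (4609 to 6888) for Ovgp1-BPR, 4 to 7 (4941 to 7209) for Pax8-BPR and 0 to 3 (1629 to 3709) for Ad-BPR, with 0 without Ad-BPR GEMM 2 and 1 without Ad-BPR GEMM 1. They ranged over 10 to 18 (2695 to 5663) in OSE-BPR against oviduct-origin GEMM tumours, the lowest without OSE-BPR GEMM 3, and 21 to 23 (6404 to 7442) in allografts. They ranged over 4 to 8 (1965 to 4934) in Ovgp1-BPR against Ad-BPR and Pax8-BPR GEMM tumours, with 4 or 5 members when Ovgp1-BPR GEMM 1, 2 or 3, Ad-BPR GEMM 1 or 2 or Pax8-BPR GEMM 3 was left out, and 3 to 10 (2063 to 5315) in allografts, with 3 without Ovgp1-BPR allograft 2 or Pax8-BPR allograft 1. They ranged over 21 to 23 (7445 to 9048) in oviduct against ovary, and were 0 for allograft against GEMM and for the difference of contrasts. A depth of 13987123 to 20514825 counts limits members near 0, such as Rtl1 and Mirg.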
